A study of Mus musculus with 12 samples.

Results

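The 50 protein-coding genes examined here are those whose symbol begins with Psma, Psmb, Psmc, Psmd, Psme, Psmf or Psmg followed by a digit, the mouse naming series of the proteasome. They were taken by name from 41457 annotated genes, 21949 of them protein-coding. By role, 48 of the 50 form lists: 7 genes of the alpha ring, 4 structural beta subunits, 3 constitutive catalytic beta subunits, 5 immunoproteasome genes, 6 base ATPases, 3 non-ATPase base subunits, 8 lid subunits, 7 assembly factors, 3 further activators or inhibitors, and 1 testis and 1 thymus subunit. The other 2 matched the name only: Psmc3ip encodes a meiotic recombination cofactor and Psme2b is named as a copy of Psme2.

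The proteasome is the protease of the cytosol and nucleus that destroys proteins marked with ubiquitin. Its core particle is a barrel of alpha and beta rings in which 3 beta subunits cut proteins (Psmb5, Psmb6 and Psmb7). In cells of the immune system, and in other cells under interferon-gamma, Psmb8, Psmb9 and Psmb10 take the places of Psmb5, Psmb6 and Psmb7 in newly built cores, which changes the peptides left for MHC class I molecules. A regulatory particle, built of a base with an ATPase ring and a lid, recognises and unfolds the substrates, and dedicated chaperones assemble both particles.

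RNA was sequenced from regulatory T cells (Treg) of mouse spleen, sorted as RFP+ CD4+ cells. CD18Foxp3 mice carry floxed CD18 alleles (CD18fl/fl, the gene Itgb2) and Foxp3Cre, so that Itgb2 exon 3 is removed in cells that express Foxp3, and CD18wt littermates carry CD18wt/wt with the same Foxp3Cre. Both genotypes have the Cre-dependent RFP reporter on a C57BL/6 background. Cells of each genotype were kept overnight in 5 U/ml IL-2, either alone (unstimulated) or with antibodies to CD3 (1 μg/ml) and CD28 (2 μg/ml) added (stimulated). Each of the 4 groups has 3 libraries, and the ages of these mice are not given in the sources used here. The labels call the libraries biological replicates and do not say which libraries of different groups came from the same animal.

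The 12 libraries held between 10665174 and 19005482 exon reads. Itgb2 fell in unstimulated CD18Foxp3 cells, from 428 ± 39.2 to 240 ± 15.0 TPM (a read level scaled for transcript length and library size; mean ± SD, n = 3), with a log2 fold change of −0.85 (edgeR adjusted p = 0.00408); the deletion removes 1 exon, so reads from the rest of the gene can remain. In stimulated cells Itgb2 stood at −0.94 and did not pass (adjusted p = 0.216). The Treg genes Foxp3, Il2ra, Ctla4, Ikzf2, Cd4 and Cd3e were present in every group, with summed levels of 1336 to 3678 TPM. Of the markers of other cells, Cd8a, Cd14, Csf1r, Itgax and Ncr1 were at or below 0.504 TPM as a group mean, but Cd8b1 stood at 15.7 to 27.3, Nkg7 at 57.5 to 101, Cd79b at 9.57 to 26.4 and Lyz2 at 0.57 to 8.35 TPM. Hba-a2 stood at 4.62, 25.5 and 3.86 TPM in the unstimulated CD18Foxp3 libraries. Libraries also differed within groups. Of 48 proteasome genes, replicate 3 was the highest of its group for 34 in unstimulated CD18wt cells, where it had the fewest reads, and for 37 in unstimulated CD18Foxp3 cells, and unstimulated CD18wt replicate 1 was the lowest for 31. Stimulated CD18Foxp3 replicate 1 was under 0.7 times the mean of the other libraries of its group for 8 of 48 genes, Psmb5, Psmb8, Psmb9, Psmb10, Psmc3, Psmd3, Psmd9 and Psmg3.

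Stretches of promoter from RefSeq (assembly GRCm38.p6) show what lies before the start site of 5 genes on which the results turn: 2 constitutive catalytic subunits, the immunoproteasome subunit with the largest fall, and 2 genes that rose on stimulation, of the lid and of the activators. Each is read 5′ to 3′ on the gene's own strand, within the 250 bases before the start and outside every annotated exon. Capitals mark matches to 6 short motifs that are named with their counts further on.
Psmb5 (chr14:54618023-54618245, minus strand): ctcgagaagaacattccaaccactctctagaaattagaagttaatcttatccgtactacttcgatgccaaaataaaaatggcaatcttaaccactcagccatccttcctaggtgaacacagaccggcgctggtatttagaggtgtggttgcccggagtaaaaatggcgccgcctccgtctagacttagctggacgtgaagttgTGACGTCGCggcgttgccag
Psmb6 (chr11:70525107-70525356, plus strand): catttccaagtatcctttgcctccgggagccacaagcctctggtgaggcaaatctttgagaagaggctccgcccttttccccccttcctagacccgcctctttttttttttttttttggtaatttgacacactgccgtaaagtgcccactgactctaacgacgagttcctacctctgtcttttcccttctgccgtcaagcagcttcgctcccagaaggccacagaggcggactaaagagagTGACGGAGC
Psmb10 (chr8:105938445-105938642, minus strand): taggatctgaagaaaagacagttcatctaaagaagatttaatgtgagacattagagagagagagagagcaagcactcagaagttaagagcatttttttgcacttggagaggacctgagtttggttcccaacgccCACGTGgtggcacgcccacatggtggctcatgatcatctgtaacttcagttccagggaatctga
Psmd11 (chr11:80428365-80428614, plus strand): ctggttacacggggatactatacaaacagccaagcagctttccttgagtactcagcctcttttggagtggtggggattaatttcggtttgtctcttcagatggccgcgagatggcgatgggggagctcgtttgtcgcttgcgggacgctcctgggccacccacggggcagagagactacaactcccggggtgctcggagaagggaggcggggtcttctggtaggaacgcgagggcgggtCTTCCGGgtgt
Psme3 (chr11:101315963-101316212, plus strand): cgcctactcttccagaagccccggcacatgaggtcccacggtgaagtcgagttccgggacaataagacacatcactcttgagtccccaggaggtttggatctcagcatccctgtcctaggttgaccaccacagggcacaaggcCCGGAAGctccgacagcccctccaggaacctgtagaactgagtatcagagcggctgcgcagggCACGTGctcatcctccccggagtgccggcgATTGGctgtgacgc
In Psmb5 and Psmb6 the capitals are the antioxidant response element core, in Psmb10 an E-box, in Psmd11 an ETS core on the opposite strand, and in Psme3, from left to right, an ETS core, an E-box and a CCAAT box on the opposite strand.

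The proteasome genes together took a larger part of the reads after stimulation in both genotypes. In CD18wt cells they held 0.549 ± 0.0617% of the exon reads when unstimulated and 0.874 ± 0.0306% when stimulated (mean ± SD, n = 3 each). In CD18Foxp3 cells the shares were 0.548 ± 0.0243% and 0.884 ± 0.0176%. Every stimulated library lay above every unstimulated one, with summed levels of 10367 to 11308 TPM against 5513 to 6681 TPM. These are shares of the RNA in bulk samples, in which fewer cells of a type and less RNA per cell cannot be told apart, and the amount per cell was not measured. Of the 3 plasma cell markers, Xbp1, a transcription factor of the unfolded protein response, rose in both genotypes (log2 fold changes 0.84 and 0.86, edgeR adjusted p = 0.000258 and 0.000118), at 57.5 to 62.7 TPM in unstimulated and 126 to 161 TPM in stimulated CD18wt libraries and 65.3 to 70.1 and 149.6 to 163 TPM in CD18Foxp3 libraries. Sdc1 rose in CD18Foxp3 cells (2.68, adjusted p = 0.00519) but stood at 2.77 TPM or less as a group mean. Jchain went the other way in CD18wt cells, at −3.13, without passing (edgeR adjusted p = 0.0138). Its level was 0.37 and 0.18 TPM after stimulation. The Treg gene Il2ra rose in both genotypes (2.27 and 3.13), and Ctla4 (1.94) and Ikzf2 (0.90) rose in CD18Foxp3 cells. Of the other Treg genes, Cd4 (−1.15 and −1.25) and Cd3e (−0.87 and −0.92) fell in both genotypes. Foxp3 passed in neither (0.37 and 0.53). The part of these markers in the rise was not tested.

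**Figure D1:**
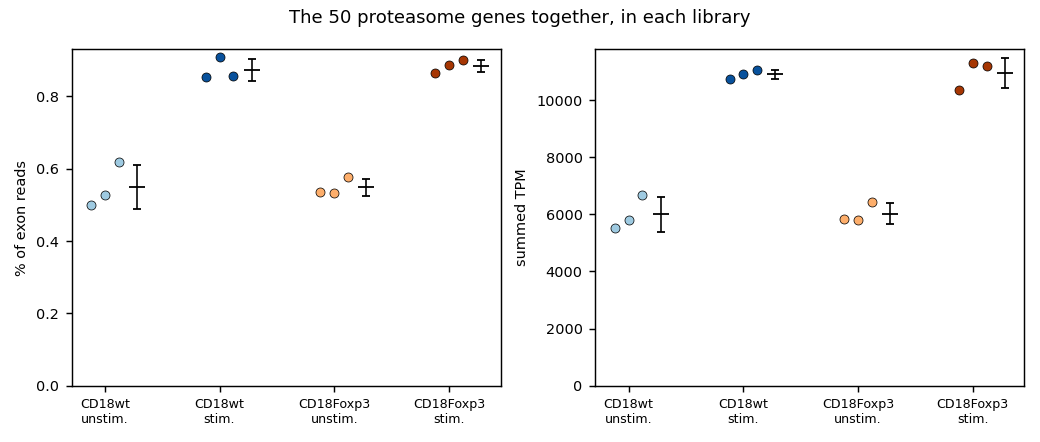
Sum over the 50 proteasome genes in each library, as a percentage of exon reads (left) and as summed TPM (right), for the 4 groups; points are libraries and the bar beside them is the mean with SD, n = 3. Stimulated libraries of both genotypes lie between 10367 and 11308 TPM and unstimulated ones between 5513 and 6681 TPM.

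Which proteasome genes responded to anti-CD3 and anti-CD28 was tested gene by gene. In CD18wt Treg, 30 of 48 genes tested rose and 3 fell, where a call needed a 1.5-fold change or more and an edgeR adjusted p of 0.01 or less, and 18.7% of all genes tested rose and 14.9% fell. In CD18Foxp3 Treg, 29 of 48 rose and 3 fell, against a background of 20.9% and 17.6%. The median log2 fold change of the 48 genes was 0.71 in CD18wt and 0.77 in CD18Foxp3 cells, and that of all genes tested was 0.02 and 0.01. On log2(TPM + 1) the medians were 1.11 and 1.10, against 0.36 and 0.31 for all genes, and 38 and 37 genes rose, where 30.1% and 31.5% of all genes did. With upper-quartile scaling 24 and 26 rose, where 16.5% and 19.1% of all genes did. Without the minimum fold and at an adjusted p of at most 0.05, 32 rose and 5 fell in CD18wt cells (26.5% and 22.8% of all genes), and 34 rose and 4 fell in CD18Foxp3 cells (29.7% and 26.8%).

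The 2 stimulation comparisons share no library, and across the 48 genes their log2 fold changes had a Pearson r of 0.972, over genes that are not independent. The calls were shared for 28 genes that rose and for the 3 that fell (Psmb9, Psmb10 and Psme2b), which is 28 of the 30 that rose in CD18wt and 28 of the 29 that rose in CD18Foxp3 cells. Psmb5 and Psmg3 passed in CD18wt alone and Psma6 in CD18Foxp3 alone, and 14 genes passed in neither. These 3 do not show a difference between genotypes, which was tested separately. The r and the shared calls over all genes are not given here, so these values do not set the proteasome genes apart.

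**Figure D2:**
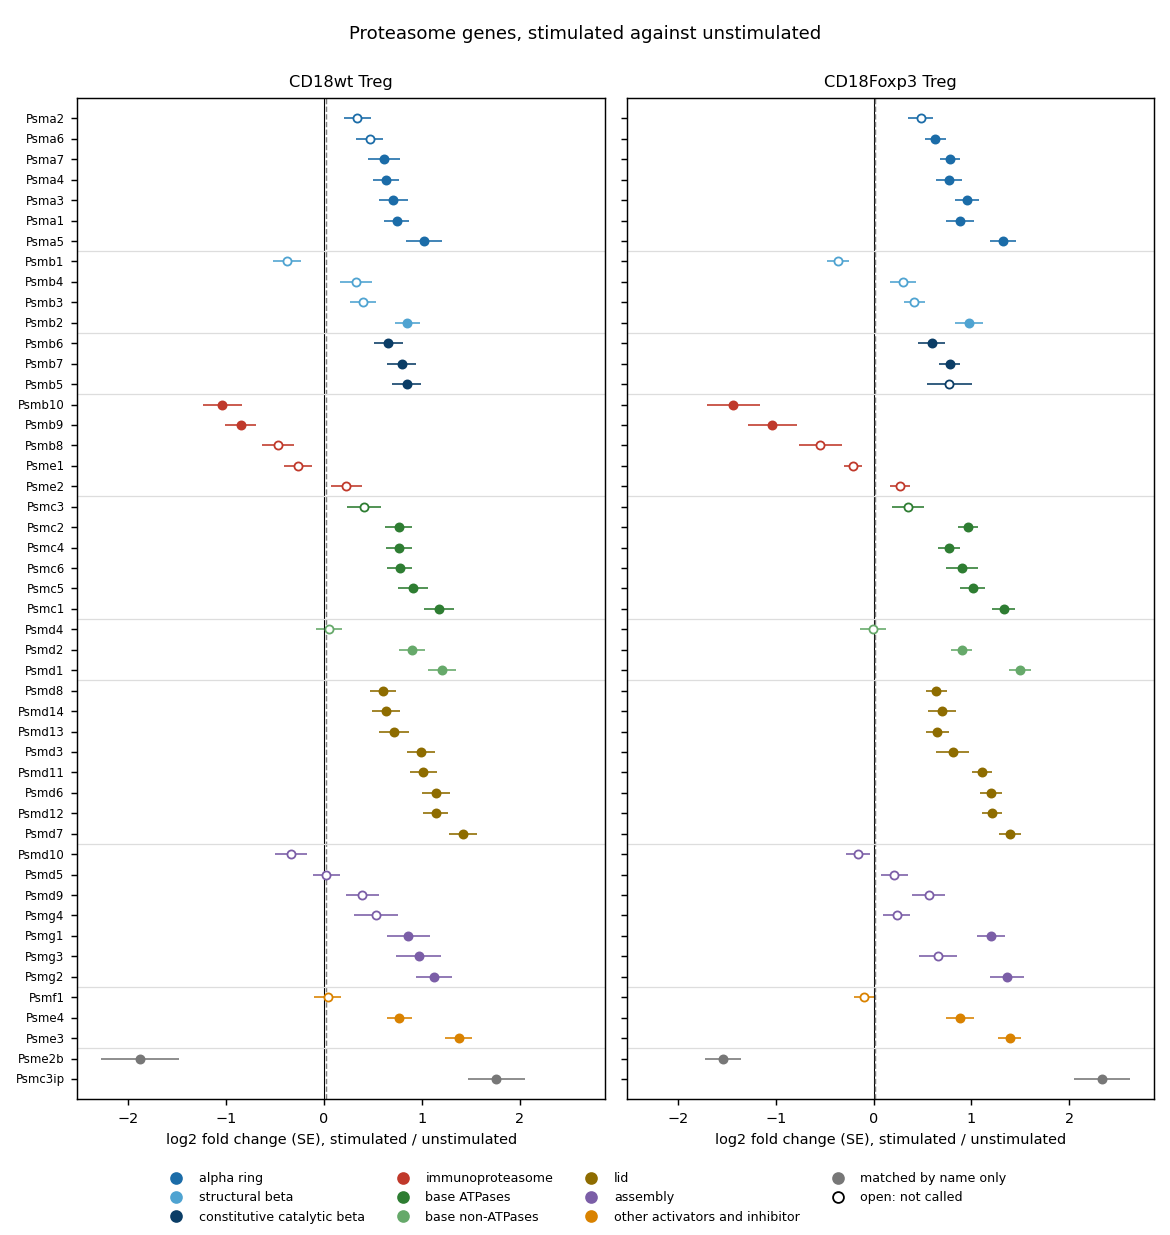
Log2 fold change on stimulation, with SE, of the 48 proteasome genes tested, in CD18wt (left) and CD18Foxp3 Treg (right), grouped and coloured by role; filled points passed the threshold, and the dashed line is the median of all genes tested. Lid genes are filled in both panels, from 0.60 to 1.42 in CD18wt cells, whereas Psmb9 and Psmb10 lie at or below −0.85 in both.

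The alpha ring forms the gate through which substrates enter the core. Of its 7 genes, 5 rose in CD18wt cells and 6 in CD18Foxp3 cells, none fell, and the median log2 fold changes were 0.64 and 0.78. Psma5 moved most, from 124, 124 and 181 TPM in the unstimulated CD18wt libraries to 347, 389 and 418 TPM in the stimulated ones. The groups did not overlap, and its log2 fold changes were 1.02 ± 0.18 (SE; edgeR adjusted p = 0.000594) and 1.33 ± 0.13 (adjusted p = 3.93e-05). Psma2 moved least, with log2 fold changes of 0.34 (adjusted p = 0.0574) and 0.48 (adjusted p = 0.0103), but on log2(TPM + 1) it passed in both genotypes, at 0.74 and 0.83, and with library totals in CD18Foxp3 cells, at 0.65.

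The structural beta subunits, which complete the beta rings without cutting, were the least uniform part of the core. Only Psmb2 of these 4 passed the threshold in the edgeR fit, at 0.85 in CD18wt (edgeR adjusted p = 0.00011) and 0.97 in CD18Foxp3 cells (adjusted p = 0.000348). On log2(TPM + 1), Psmb3 was higher in stimulated cells by 0.79 in CD18wt and 0.77 in CD18Foxp3 cells. Psmb4 was higher there by 0.72 and 0.66, and neither gene's groups overlapped. The median of all genes on that scale was 0.36 and 0.31. Psmb1 had log2 fold changes of −0.38 (adjusted p = 0.0475) and −0.36 (adjusted p = 0.0174). Per length its level was nearly the same before and after stimulation, at 131 ± 8.23 and 133 ± 11.4 TPM in CD18wt cells, so that it went from the middle of the core genes to the lowest of them. The sign of its log2 fold change turned with the scaling in CD18wt cells, to 0.02 on log2(TPM + 1).

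All 3 constitutive catalytic subunits rose in CD18wt Treg. Psmb5, which carries the chymotrypsin-like activity, stood at 244, 249 and 287 TPM in the unstimulated and 591, 661 and 591 TPM in the stimulated CD18wt libraries, a log2 fold change of 0.84 ± 0.15 (edgeR adjusted p = 0.000424). The groups were far apart. In CD18Foxp3 cells it stood at 244, 238 and 286 TPM and then at 333, 675 and 692 TPM, where replicate 1 lay nearer to the unstimulated libraries than to its own group. There the log2 fold change was 0.78 ± 0.23 and missed the threshold (adjusted p = 0.0182), and without that library it was 1.02 (adjusted p = 7.07e-07). It also passed with DESeq2, at 0.76 (adjusted p = 0.00255), and with library totals, at 0.95 (adjusted p = 0.0076), as well as with edgeR's likelihood ratio test (0.78), with no filter (0.79), on log2(TPM + 1) (1.07) and log2(TPM + 0.1) (1.08), with all 12 libraries in 1 fit (0.78) and with the replicate block (0.71).

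Psmb6, the caspase-like subunit, had log2 fold changes of 0.66 ± 0.15 (edgeR adjusted p = 0.00256) and 0.59 ± 0.14 (adjusted p = 0.00531). Psmb7, the trypsin-like subunit, had 0.79 ± 0.15 (adjusted p = 0.00066) and 0.78 ± 0.11 (adjusted p = 0.000291). For both, every stimulated library lay above every unstimulated one, at 270 to 302 against 125 to 152 TPM for Psmb6 in CD18wt cells. The exons of Psmb7 overlap those of Nek6 on the opposite strand over 11.8% of their bases, and 71.5% of its reads had a single placement, so its level is less certain. The Psmb6 call depended on single libraries and was lost without unstimulated replicate 1 or 2 or stimulated replicate 2 in CD18wt cells (0.58, 0.61 and 0.52), and without any 1 library other than stimulated replicate 1 in CD18Foxp3 cells (0.49 to 0.64). It was also lost with upper-quartile scaling in both genotypes (0.57 and 0.53) and with DESeq2 in CD18Foxp3 cells (0.58).

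With TMM scaling, none of the 5 immunoproteasome genes rose and 2 fell in each genotype, with medians of −0.47 in CD18wt and −0.55 in CD18Foxp3 cells. On log2(TPM + 1) none of the 5 fell past the threshold and Psme2 rose in both, where 7.19% of all genes fell in CD18wt and 9.99% in CD18Foxp3 cells. Psmb10 (chr8:105935735-105938444) stood at 208, 235 and 305 TPM in unstimulated CD18wt cells and at 208, 128 and 151 TPM after stimulation. Replicate 1 of the stimulated group reached the lowest unstimulated value, and the log2 fold change was −1.04 ± 0.20 (edgeR adjusted p = 0.000929). In CD18Foxp3 cells it fell from 284, 291 and 323 TPM to 73.9, 186 and 172 TPM with no overlap, a log2 fold change of −1.43 ± 0.27 (adjusted p = 0.0018) that was −1.14 without stimulated replicate 1 (adjusted p = 1.58e-07).

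Psmb9 (chr17:34181988-34187764) stood at 113, 116.5 and 154 TPM in unstimulated and 91.6, 87.2 and 103 TPM in stimulated CD18wt cells. The groups did not overlap in either genotype, with log2 fold changes of −0.85 ± 0.16 (edgeR adjusted p = 0.000653) and −1.03 ± 0.25 (adjusted p = 0.00639), the latter −0.77 without stimulated CD18Foxp3 replicate 1. In CD18Foxp3 cells the call was lost without unstimulated replicate 1, 2 or 3 (−1.10, −1.05 and −0.96). Psmb8 (chr17:34197721-34201454) missed the threshold, at −0.47 ± 0.17 (adjusted p = 0.0311) and −0.55 ± 0.22 (adjusted p = 0.0588). Its levels overlapped between cultures, at 476 ± 86.1 and 458 ± 49.1 TPM in CD18wt cells. The 2 genes lie in the MHC with Tap1 between them, where 212 exon bases of Psmb9 overlap Tap1 on the opposite strand and 498 of Psmb8 overlap Gm20496.

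Psme1 and Psme2 encode the activator ring that interferon-gamma induces together with the immunoproteasome subunits. Neither passed, with log2 fold changes of −0.27 and −0.21 for Psme1 (edgeR adjusted p = 0.148 and 0.0846) and of 0.23 and 0.27 for Psme2 (adjusted p = 0.251 and 0.0525). Per length, Psme2 was the list's most abundant gene in stimulated CD18wt cells, at 610 ± 39.4 TPM. Only 30.9% of its reads had a single placement, and 21.0% did for Psme2b, so the level of each is uncertain. Psme2b fell by 1.88 and 1.54 on the log2 scale (adjusted p = 0.00485 and 0.000101), and in CD18wt cells that call was lost without unstimulated replicate 2 or 3 or stimulated replicate 2 or 3 (−1.87, −1.70, −1.68 and −1.65). It was also lost there on log2(TPM + 1), at −1.57 (limma adjusted p = 0.0178), and on log2(TPM + 0.1), at −1.59.

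Scaling bears on these falls. The edgeR values above use TMM factors, which centre the median of all genes near 0, whereas on log2(TPM + 1) that median was 0.36 in CD18wt and 0.31 in CD18Foxp3 cells. On that scale Psmb9 stood at −0.43 and −0.74 and Psmb10 at −0.63 and −1.16, below the median of all genes, but neither passed the threshold in either genotype (limma adjusted p between 0.0149 and 0.0591), Psmb8 stood at −0.05 and −0.24, and Psme1 turned positive, to 0.14 and 0.16. Psme2 passed there as higher, at 0.64 (adjusted p = 0.0021) and 0.63 (adjusted p = 0.00166). With library totals Psmb10 passed in both genotypes and Psmb9 in CD18wt alone. The summed B cell markers, almost all of it Cd79b, went from 22.6 to 30.4 TPM in unstimulated libraries to 8.75 to 19.8 TPM in stimulated ones, with Ms4a1 at 0.0461 to 0.295 TPM as a group mean. Other markers called lower on stimulation were Cd8b1 (−1.08 and −0.76), Lyz2 in CD18wt (−3.56) and Hba-a2 in CD18Foxp3 cells, and the Treg genes Cd4 (−1.15 and −1.25) and Cd3e (−0.87 and −0.92). The cytotoxic lymphocyte marker Nkg7 (0.42 and −0.03) and the myeloid marker H2-Ab1 (0.64 and −0.69) were called in neither genotype. Markers called higher in both genotypes were the Treg gene Il2ra (2.27 and 3.13) and Xbp1 (0.84 and 0.86). In CD18Foxp3 cells alone, the Treg genes Ctla4 (1.94) and Ikzf2 (0.90) and the plasma cell marker Sdc1 (2.68) were also called higher. The part of these markers in the falls was not tested.

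**Figure D3:**
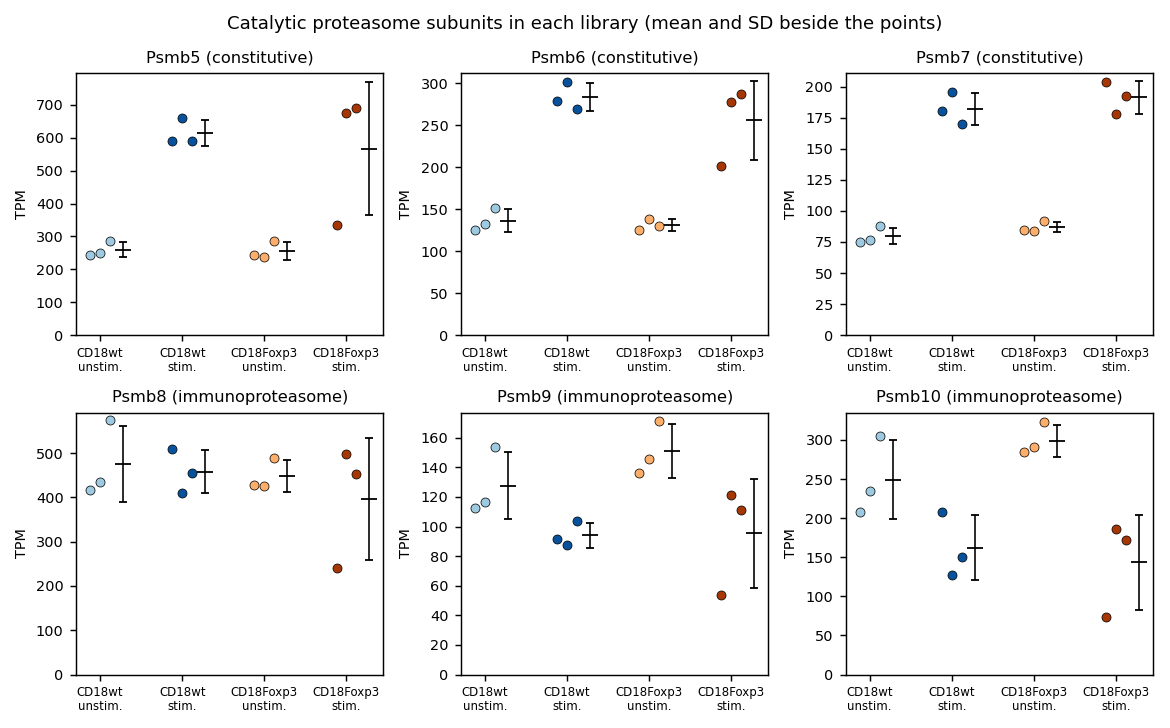
TPM of the 3 constitutive catalytic subunits (top) and of the 3 immunoproteasome subunits that replace them (bottom) in each of the 12 libraries; points are libraries, and the bar beside them is the mean with SD, n = 3. Psmb5, Psmb6 and Psmb7 are higher in the stimulated libraries, and stimulated CD18Foxp3 replicate 1 is the lowest of its group for Psmb5, Psmb6, Psmb8, Psmb9 and Psmb10.

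The ratio of each immunoproteasome subunit to the constitutive subunit it replaces does not depend on how libraries are scaled. Of the Psmb8 and Psmb5 transcripts counted together per length, Psmb8 made up 63.1, 63.6 and 66.7% in unstimulated and 46.3, 38.3 and 43.5% in stimulated CD18wt libraries. Per length, Psmb8 was the majority form in every unstimulated library and the minority form in every stimulated one. Which form is the majority rests on the annotated exon lengths, 2736 bases for Psmb8 and 899 for Psmb5. In reads, Psmb8 exceeded Psmb5 in the stimulated CD18wt libraries too (5359, 6440 and 6433 against 2046, 3411 and 2741). The share of Psmb8 per length was 63.7 ± 0.555% and 41.3 ± 1.47% in CD18Foxp3 cells (mean ± SD, n = 3). Stimulated replicate 1 stood at 41.8%, inside its group although both of its subunits were low there.

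Psmb9 made up 48.2 ± 1.92% of its pair with Psmb6 in unstimulated and 25.0 ± 2.66% in stimulated CD18wt cells, and 53.4 ± 3.01% and 26.4 ± 4.90% in CD18Foxp3 cells. Psmb10 went from 75.5 ± 2.14% to 46.7 ± 7.06% of its pair with Psmb7 in CD18wt cells. In CD18Foxp3 cells it went from 77.5 ± 0.441% to 26.7, 51.1 and 47.1%, a mean of 41.6%, where replicate 1 was again far below the rest. From uniquely placed reads alone its mean share went from 81.5% to 55.3% in CD18wt cells, with stimulated libraries at 62.4, 47.6 and 55.9%. In CD18Foxp3 cells that mean went from 82.7% to 49.2%, with stimulated libraries at 33.35, 59.05 and 55.3%. No stimulated library overlapped an unstimulated one in any of the 3 pairs in either genotype. These ratios are given as a description, without a test.

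The 2 sides of each ratio did not move alike. The summed level of Psmb5, Psmb6 and Psmb7 went from 476 ± 43.7 to 1080 ± 69.0 TPM in CD18wt cells and from 474 ± 29.0 to 1014 ± 239 TPM in CD18Foxp3 cells. That of Psmb8, Psmb9 and Psmb10 went from 853 ± 159 to 715 ± 91.5 TPM and from 898 ± 73.6 to 636 ± 235 TPM. On the TPM scale the rise of the constitutive sum thus exceeded the spread between libraries in both genotypes. The immunoproteasome sums overlapped there in CD18wt but not in CD18Foxp3 cells. How far each side moved depends on the scaling. With TMM, Psmb5, Psmb6 and Psmb7 had log2 fold changes of 0.66 to 0.84 in CD18wt and 0.59 to 0.78 in CD18Foxp3 cells. Those of Psmb8, Psmb9 and Psmb10 were −0.47 to −1.04 and −0.55 to −1.43.

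**Figure D4:**
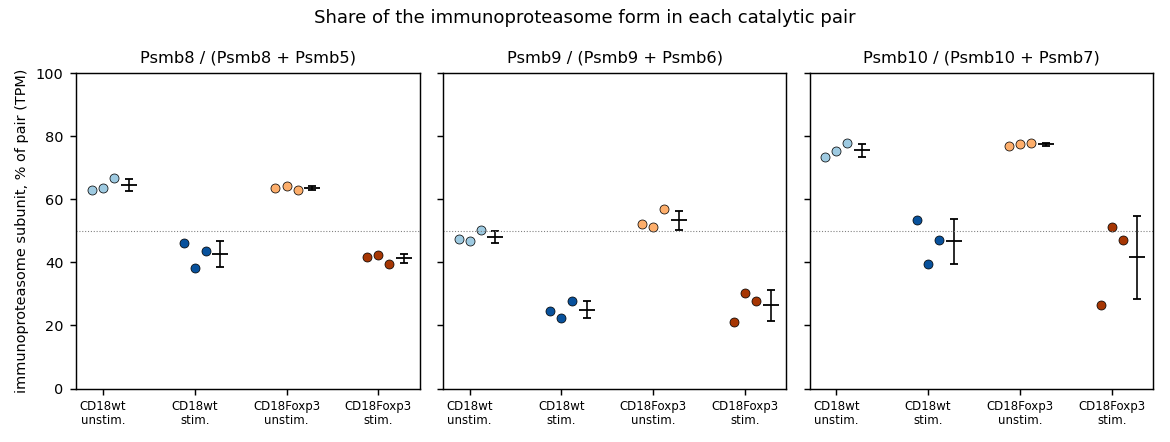
Share of the immunoproteasome subunit in each catalytic pair, from TPM, in each of the 12 libraries; points are libraries, the bar beside them is the mean with SD (n = 3), and the dotted line marks equal levels. Stimulated libraries lie below unstimulated ones in all 3 pairs, with Psmb10 at 26.7% in stimulated CD18Foxp3 replicate 1.

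Most genes of the regulatory particle rose. Of the base ATPases, which unfold the substrate and feed it to the core, 5 of 6 rose in both genotypes, with medians of 0.77 and 0.93. Psmc1 moved most, from 94.1, 106 and 122 TPM to 302, 326 and 331 TPM in CD18wt cells without overlap (log2 fold change 1.18 ± 0.15, edgeR adjusted p = 3.36e-05). Psmc3 was the exception, at 0.41 (adjusted p = 0.0663) and 0.35 (adjusted p = 0.0895), and it passed in CD18wt cells, at 0.64 (adjusted p = 0.00257), without unstimulated replicate 3, with library totals, at 0.61, and on log2(TPM + 1), at 0.83.

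The non-ATPase base subunits are a pair of scaffolds and a ubiquitin receptor. Both scaffolds, Psmd1 and Psmd2, rose in both genotypes, with Psmd2 at 150 TPM in unstimulated and 371 TPM in stimulated CD18wt cells. The scaffold Psmd1 went from 31.7, 39.9 and 38.4 to 101, 111 and 123 TPM in CD18wt cells, with log2 fold changes of 1.20 ± 0.14 (edgeR adjusted p = 2.07e-05) and 1.5 ± 0.11 (adjusted p = 7.07e-06). Psmd4, the ubiquitin receptor, had log2 fold changes of 0.05 and −0.01 (adjusted p = 0.787 and 0.953). Its level was 134 ± 11.2 and 183 ± 10.9 TPM in CD18wt cells, higher per length after stimulation, and the sign of its log2 fold change turned with the scaling. On log2(TPM + 1) Psmd4 stood at 0.34 in CD18Foxp3 cells, near the median of all genes there (0.31).

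With TMM scaling, 8 of 8 lid genes rose in each genotype, with medians of 1.00 and 0.96. Psmd7, the inactive partner of the lid's deubiquitinase Psmd14, moved most, from 81.7, 80.3 and 99.4 TPM to 298, 299 and 329 TPM in CD18wt cells. The groups were separated by a wide gap, at log2 fold changes of 1.42 ± 0.15 (edgeR adjusted p = 5.68e-06) and 1.39 ± 0.11 (adjusted p = 1.22e-05). Psmd8 moved least, at 0.60 (adjusted p = 0.00229) and 0.64 (adjusted p = 0.000681), and Psmd14 itself stood at 0.63 and 0.70. Psmd8 lay near the minimum fold and was lost with upper-quartile scaling in both genotypes (0.52 and 0.58), with DESeq2 in CD18wt cells (0.57), without unstimulated replicate 1 or 2 or stimulated replicate 2 there (0.60, 0.53 and 0.48), and without stimulated replicate 3 in CD18Foxp3 cells (0.58).

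The assembly factors were mixed. Of 7, 3 rose in CD18wt cells (Psmg1, Psmg2 and Psmg3) and 2 in CD18Foxp3 cells (Psmg1 and Psmg2). Psmg1 and Psmg2 form the chaperone pair that builds the alpha ring, and Psmg2 moved most, from 40.1, 44.8 and 39.1 to 98.0, 103 and 156 TPM in CD18wt cells (log2 fold change 1.12 ± 0.19, edgeR adjusted p = 0.000266). The base chaperones Psmd5, Psmd9 and Psmd10 did not pass in the edgeR fit in either genotype, with Psmd10 at −0.34 (adjusted p = 0.102) and −0.16 (adjusted p = 0.301), values that were positive on log2(TPM + 1). On that scale Psmd9 was higher in stimulated cells by 0.74 and 0.855, and Psmd5 by 0.40 and 0.54, without overlap. The median of all genes there was 0.36 in CD18wt and 0.31 in CD18Foxp3 cells, so Psmd5 in CD18wt cells lay near it. The share of all genes without overlap on stimulation is not given here.

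Among the remaining activators, Psme3, which forms a nuclear activator ring, went from 121, 127 and 112 to 367, 442 and 413 TPM in CD18wt cells. The groups did not overlap, at 1.38 ± 0.14 (edgeR adjusted p = 5.44e-06) and 1.39 ± 0.12 (adjusted p = 1.58e-05). Psme4, a large single-chain activator, rose by 0.77 and 0.88 (adjusted p = 0.000255 and 0.00083). Psmf1, a proteasome inhibitor, stood at 0.04 and −0.10, with the sign turning with the scaling in both genotypes (adjusted p = 0.843 and 0.456).

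Psmc3ip rose by 1.76 ± 0.29 and 2.34 ± 0.29 (edgeR adjusted p = 0.000275 and 0.000134), from 5.72 ± 1.91 to 25.4 ± 1.05 TPM in CD18wt cells, and 21.2% of its exon bases overlap Mlx on the opposite strand. The testis subunit Psma8 and the thymus subunit Psmb11 did not pass the filter on low counts. Psma8 had between 0 and 11 reads in a library and Psmb11 between 0 and 1, at or under 0.855 and 0.0408 TPM.

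Levels per length within the core were unequal and changed in order. The order within a group rests on annotated exon lengths, which differ between genes, such as 899 bases for Psmb5 and 3421 for Psmb7. In unstimulated CD18wt cells the 14 alpha, structural beta and constitutive beta genes spanned 79.8 TPM (Psmb7) to 311 TPM (Psma6), a ratio of 3.90. After stimulation they spanned 133 TPM (Psmb1) to 614 TPM (Psmb5), a ratio of 4.62. In CD18Foxp3 cells the lowest gene was likewise Psmb7 before and Psmb1 after stimulation, and Psma6 had the highest mean in both. After stimulation, however, Psmb5 lay above Psma6 in CD18Foxp3 replicates 2 and 3, at 675 and 692 against 590 and 562 TPM.

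The effect of CD18 loss was compared in each culture. No proteasome gene passed in unstimulated cells, where 0.135% of all genes did, and none had an unadjusted p at or below 0.05 in edgeR, as 1134 of 11829 genes did. The same held in stimulated cells (0% of all genes called, 583 of 11930 below an unadjusted p of 0.05). Neither the likelihood ratio test of edgeR nor DESeq2 called a proteasome gene in either culture, although of all genes they called 35 and 34 as higher and 51 and 52 as lower in unstimulated cells, and 11 and 17 as higher and 5 and 5 as lower in stimulated cells. The log2 fold changes lay between −0.50 (Psmc3ip) and 0.30 (Psmg4) in unstimulated and between −0.28 (Psmg3) and 0.19 (Psmb2) in stimulated cells, with median SE of 0.11 and 0.16. TPM of the 2 genotypes did not overlap for 2 of 48 genes in unstimulated cells (Psmb3 higher, Psmc2 lower in CD18Foxp3 cells), against 15.6% of all genes, and for 2 in stimulated cells (Psmc1 higher, Psmd3 lower), against 9.43%.

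The unstimulated comparison leaned on CD18wt replicate 3. With it, the median log2 fold change of the 48 genes was −0.03 and 16 were positive, and without it the median was 0.06 and 34 were positive. The immunoproteasome subunits Psmb9 and Psmb10 stood at 0.21 ± 0.14 (edgeR adjusted p = 0.711) and 0.23 ± 0.15 (adjusted p = 0.684) with all libraries. Without that library they stood at 0.41 (adjusted p = 0.0266) and 0.44 (adjusted p = 0.0107), short of the threshold. Psmb8 was at −0.12 with it and 0.08 without it. The share of Psmb9 in its pair was 47.4, 46.8 and 50.4% in CD18wt and 52.2, 51.2 and 56.8% in CD18Foxp3 cells, without overlap, while those of Psmb8 and Psmb10 overlapped.

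In stimulated cells Psmb8, Psmb9 and Psmb10 had log2 fold changes between genotypes of −0.20, 0.03 and −0.17 (edgeR adjusted p = 0.998 for each), and 0.05, 0.30 and 0.14 without CD18Foxp3 replicate 1. None of these passed. Whether the response to stimulation differed between genotypes was tested with an interaction term over all 12 libraries. No proteasome gene passed, of 0% of all genes called, none had an unadjusted p at or below 0.05, and 485 of 12636 genes did, and neither the likelihood ratio test nor DESeq2 called one. The interaction ranged from −0.40 ± 0.40 for Psmb10 to 0.57 ± 0.41 for Psmc3ip (adjusted p = 0.988 for both).

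**Figure D5:**
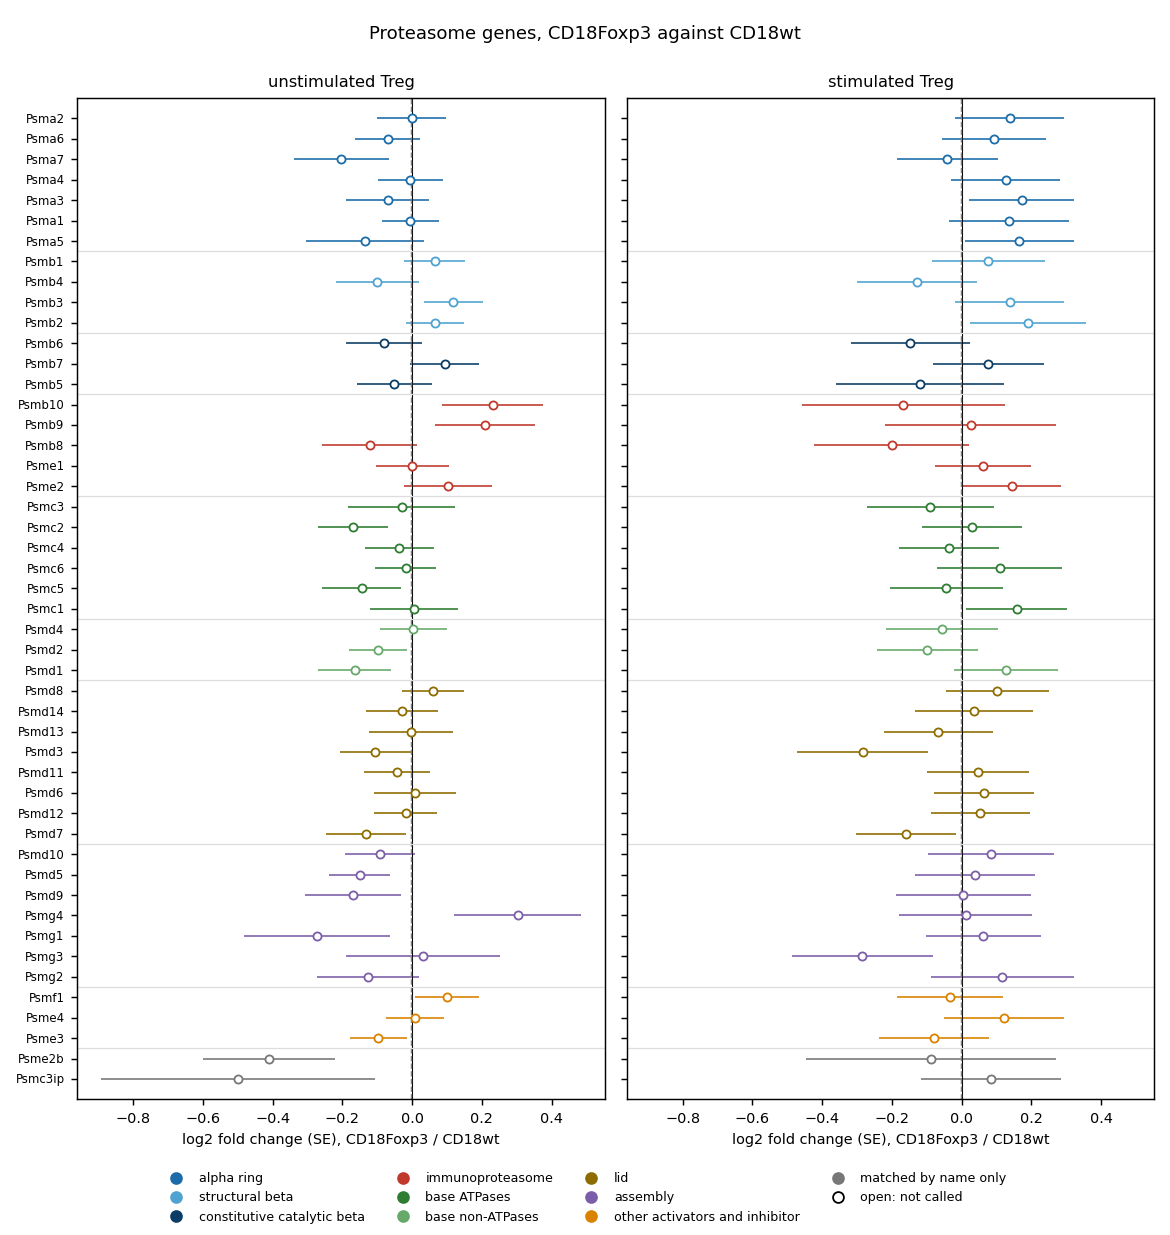
Log2 fold change between CD18Foxp3 and CD18wt cells, with SE, of the 48 proteasome genes tested, in unstimulated (left) and stimulated Treg (right), grouped and coloured by role as in the plot of stimulation; open points did not pass the threshold, and the dashed line is the median of all genes tested. Every point is open, and values run from −0.50 to 0.30 (left) and from −0.28 to 0.19 (right).

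Reads over introns give a second readout of the same libraries, with far fewer reads. In CD18wt cells 1 of 42 genes tested rose and 0 fell, where 2.71% and 5.09% of all genes did, and in CD18Foxp3 cells 7 of 41 rose and 1 fell, where 15.0% and 15.4% did. The median log2 fold changes were 0.90 and 0.66, and those of all genes tested were 0.05 and 0.04. Psmd7 passed in both, from 24, 31 and 16 intron reads to 91, 102 and 147 in CD18wt cells (log2 fold change 1.70 ± 0.39, edgeR adjusted p = 0.00595) and at 2.34 ± 0.33 in CD18Foxp3 cells (adjusted p = 5.48e-08). In CD18wt cells that call held only without unstimulated replicate 3, and was lost without any other 1 library (1.55 to 1.76). Psmg2 stood at 1.81 over introns in CD18wt cells (adjusted p = 0.0154) and passed, at 2.12, without unstimulated replicate 3.

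Psma6 fell over introns in CD18Foxp3 cells, by 0.65 on the log2 scale (edgeR adjusted p = 0.00762), while its exon reads rose. That call was lost without unstimulated replicate 2 or 3 or stimulated replicate 2, when 0 proteasome genes fell over introns. Psmb8, Psmb9 and Psmb10 were positive over introns where tested, opposite to their exon reads, but did not pass with all libraries. Psmb8 had 6, 3 and 2 intron reads in unstimulated and 22, 23 and 43 in stimulated CD18wt cells (log2 fold change 2.42 ± 0.74, adjusted p = 0.0294), and Psmb9 stood at 1.53 ± 0.56 (adjusted p = 0.0638) and 1.06 ± 0.39 (adjusted p = 0.025), the latter passing at 1.37 without stimulated CD18Foxp3 replicate 1. Psmb10 had 12 intron reads in the unstimulated CD18wt libraries together, too few for a firm statement.

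Genes that work with the proteasome were taken from a list of 38 outside the naming series. In CD18wt cells 13 rose and 4 fell, with a median of 0.18, and in CD18Foxp3 cells 14 rose and 9 fell, with a median of 0.16. The shares of all genes that rose and fell were 18.7% and 14.9% in CD18wt and 20.9% and 17.6% in CD18Foxp3 cells. The highest in CD18wt cells were Irf8, an interferon regulatory factor, at 3.94 (edgeR adjusted p = 1.57e-05), Uba6, a ubiquitin-activating enzyme, at 1.36, and Uchl5, a deubiquitinase of the regulatory particle, at 1.33. The lowest were B2m, the light chain of MHC class I, at −1.24 (adjusted p = 3.91e-05), Ngly1, which removes glycans from proteins bound for degradation, at −1.19, and Tapbp, which loads class I with peptide, at −1.10. All 6 passed in CD18Foxp3 cells too, in the same direction.

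Promoter windows of the 250 bases before the start were found in RefSeq for 42 of the 50 genes (45 windows), and letters were searched on both strands. The ETS core CCGGAAG was in 31.1% of the proteasome gene windows, 6.91% of all 32851 windows and 14.4% of those of genes tested in CD18wt stimulation. It was in 13 genes. These were the lid genes Psmd6, Psmd11 and Psmd12, the ATPases Psmc1, Psmc2 and Psmc6, and Psma6, Psmd2, Psmd4, Psme3, Psme4, Psmg1 and Psmc3ip. Of them, Psmd4 passed on stimulation in neither genotype and Psma6 in CD18Foxp3 cells alone. The ETS core was in no immunoproteasome gene, a difference that was not tested. The antioxidant response element core TGACNNNGC, the letters of NFE2L1 and NFE2L2 sites, was in 11.1% of the windows, 10.2% of all and 11.7% of those of tested genes, with Psmb5 and Psmb6 among its 5 genes.

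Interferon-linked motifs were found in few windows. The interferon-stimulated response element core GAAANNGAA was in 6.67% of the windows and 7.13% of all, in Psmb3, Psmd4 and Psmd9, and the gamma-activated site TTCNNNGAA was in 4.44% and 7.02%, in Psmb8 and Psmg1. CCAAT was in 33.3% and 33.8%, and the E-box CACGTG, found in Psmb10 and Psme3 above, in 8.89% and 6.02%, and in 8.38% of those of tested genes. These are matches of letters and not binding sites. The transcripts of Nfe2l1 and Nfe2l2 stood at 0.12 and −0.42 on stimulation in CD18wt cells (edgeR adjusted p = 0.43 and 0.0376).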

How the data were processed

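RNA was measured in 12 libraries of sorted mouse Treg, 3 in each of 4 groups given by the labels, from poly(A) RNA read as 59-base single reads after 15 PCR cycles. The authors mapped the reads with CLC Genomics Workbench to GRCm 38 and deposited, for each gene, raw counts of exon and intron reads and TPM, which the authors computed from exon counts and exon length. Reads were not counted by molecule, and the spread between libraries holds variation between biological replicates, library preparation and counting. Total exon counts were tested with edgeR 4.0.16 in R 4.3.3 (quasi-likelihood test, TMM, filterByExpr with a minimum count of 10, Benjamini-Hochberg adjustment over all genes tested), within the 6 libraries compared or, for the interaction, all 12. A call needed a fold change of 1.5 and an adjusted p of 0.01, the thresholds in the study's methods. Levels are TPM, and intron counts were tested in the same way. Promoters and motifs came from RefSeq, and exon overlaps from the annotation.

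The members and lists were chosen with earlier results of these data known. Genes were named by rule: the 6 catalytic beta subunits, the activators and the inhibitor, the highest and lowest of each role list on stimulation in CD18wt cells, genes that did not pass the filter, and the 3 highest and 3 lowest of the other pathway genes. Psmd14, Psmg1, Nfe2l1, Nfe2l2, the few genes called in 1 genotype alone or not overlapping between genotypes, and genes with a motif, were named after their values were seen. DESeq2 1.42.0, limma 3.58.1, other normalizations, filters, thresholds, uniquely placed reads and leaving out each library were tried. The tests were checked on simulated data, in which stimulation in CD18wt cells (11930 genes) recovered 49 of 99 genes changed 1 log2 unit and 87 of 97 changed 2 log2 units, with 8 unchanged genes called. The genotype comparison in unstimulated cells (11829 genes) recovered 65 of 98 and 84 of 95, with 2 unchanged genes called. Some genes are not reported here.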

Additional observations from a re-analysis of the deposited data

How the results depend on the processing

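Depth and the 3 libraries per group limit these results: the median SE of a genotype difference was 0.11 in unstimulated and 0.16 in stimulated cells, and intron counts are low. Over 115 results, settings other than leaving out 1 library left 975 values with the same direction and call, 19 lost a call, 20 gained one, 15 moved and 23 reversed. Leaving out 1 library left 649 the same, with 24 calls lost, 4 gained, 9 values moved and 15 reversed. For no reversal was the cause tested. On log2(TPM + 1) and log2(TPM + 0.1), where the median of all genes was positive, 0 proteasome genes fell in CD18wt and 1 in CD18Foxp3 cells. Of all genes, 7.19% and 6.93% fell there in CD18wt and 9.99% and 9.82% in CD18Foxp3 cells. With no minimum fold at 0.05 in the main fit, 5 proteasome genes fell in CD18wt cells. On those 2 scales, the CD18wt values were 0.0166 and 0.0167 for Psmb1, 0.0522 and 0.0526 for Psmd10 and 0.14 and 0.14 for Psme1, and the CD18Foxp3 values were 0.20 and 0.20 for Psmd10, 0.34 and 0.34 for Psmd4, 0.16 and 0.16 for Psme1 and 0.26 and 0.27 for Psmf1. With library totals, CD18Foxp3 values were 0.0184 (Psmd10), 0.17 (Psmd4) and 0.0794 (Psmf1), and with no filter Psmd4 was 0.0028. With upper-quartile scaling, CD18wt values were -0.0329 (Psmd4) and -0.0458 (Psmf1). Psmb9 between genotypes in stimulated cells was -0.0623 and -0.0639 on the TPM scales. From uniquely placed reads, the log2 ratio of Psmb10 to Psmb7 was 2.16 and 0.31 in unstimulated and stimulated CD18wt cells and 2.26 in unstimulated CD18Foxp3 cells, against 1.63, -0.19 and 1.78 from TPM.

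The labels do not say that a number pairs libraries, and no comparison had every same-numbered correlation over 0.1. Their deviations correlated between -0.0945 and 0.0958 in CD18wt stimulation, 0.0696 and 0.147 in CD18Foxp3 stimulation (where each library correlated best with its own number), -0.0051 and 0.0847 between unstimulated and -0.1315 and -0.0575 between stimulated genotypes. With the replicate number as a block, 29 genes rose and 3 fell in each genotype (of all genes, 16.8% and 13.2% in CD18wt and 21.7% and 19.1% in CD18Foxp3 cells), 0 passed between genotypes, 0 rose over introns in CD18wt cells (0.527% of all genes), and with that block Psmb5 passed and Psmb6 did not in CD18Foxp3 cells (0.71 and 0.58), and Psmb9 between stimulated genotypes was -0.0485.

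Leaving out each library in turn gave 21 to 31 genes that rose and 2 to 3 that fell in CD18wt cells, and 25 to 30 and 2 to 3 in CD18Foxp3 cells. In the same fits 15.0% to 17.7% of all genes rose and 11.4% to 13.6% fell in CD18wt cells, and 16.0% to 20.9% and 13.1% to 18.8% in CD18Foxp3 cells. Over introns, 0 to 2 rose in CD18wt cells (0.446% to 3.66% of all genes), and 5 to 6 rose and 0 to 1 fell in CD18Foxp3 cells (10.9% to 13.6% and 12.3% to 14.4%). The median genotype difference in unstimulated cells ranged from -0.0987 to 0.0625 and that of the interaction from -0.0316 to 0.15. Psmd4 ranged from -0.0239 to 0.16 and Psmf1 from -0.0319 to 0.12 in CD18wt cells, and Psmd4 from -0.14 to 0.0933 in CD18Foxp3 cells. Between genotypes, Psmb8 ranged from -0.22 to 0.0797 in unstimulated and -0.37 to 0.0491 in stimulated cells, where Psmb9 ranged from -0.16 to 0.30 and Psmb10 from -0.37 to 0.14. Psmb9 ranged from -0.39 to 0.0936 in the interaction.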
